A study of Mus musculus with 4 samples.

Results

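The genes described here are 10 transcription factors of the mast cell lineage and of the progenitors it comes from: Gata1, Gata2, Mitf, Tal1, Gfi1, Cebpa, Spi1, Stat5a, Runx1 and Sox4. They were taken by symbol from the platform annotation, from a list drawn up with earlier results of these data known, and are 10 of the 22180 genes with a probe set of their own. They had 11 of the 33793 probe sets on the array, because Sox4 had a pair, and no probe set annotated to several genes included any of them. All 10 genes were above background on at least 1 array and 9 of them on all 4 arrays. Of all 22180 genes, 13328 were above it on at least 1 array. At the stricter limit given below (99th percentile), 9 members were above it in intestinal mast cells and 7 in each other group.

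The study measured RNA of BALB/c mouse mast cells in 4 groups, each on a single Affymetrix whole-transcript array. The intestinal mast cells came out of the small intestinal lamina propria of naive mice and were sorted by flow cytometry for FcεRI and c-Kit. The other groups were bone marrow-derived mast cells (BMMCs), grown from marrow in interleukin-3 and stem cell factor (10 ng/ml each) for 3 to 4 weeks and then kept for 6 more days under 1 of 3 conditions. The Dll1 cells spent these days on a layer of CHO cells, a hamster ovary line, carrying Dll1, a mouse ligand of Notch, and c-Kit-positive cells were then taken with magnetic beads. The TGF-β1 cells received transforming growth factor β1 at 5 ng/ml, and the control cells were left in normal medium. The title of the study names Notch signalling in the differentiation of mucosal mast cells as its subject. The labels state no age, sex or number of mice. Sorting, tissue digestion and the presence of hamster feeder cells each went with a group and cannot be told apart from it. The arrays measured bulk RNA, so fewer cells of a type and less RNA per cell cannot be told apart either.

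Mast cells arise from haematopoietic progenitors, and their identity depends on a small set of transcription factors. GATA2 and MITF are needed for mast cell development, and together with GATA1 they act on the genes for the IgE receptor, proteases and c-Kit. TAL1 binds DNA in complexes with GATA factors, PU.1 (the product of Spi1) and C/EBPα balance mast cell against other myeloid fates, and STAT5 carries the survival signals of interleukin-3 and stem cell factor.

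Values are log2 levels as deposited, and a difference of 1 is 2-fold. Background was gauged from 1443 probe sets of chemosensory receptor genes (olfactory, vomeronasal, taste), and their 95th percentile served as the limit of an array. The limit was 5.11 on the intestinal array, 5.13 on the Dll1 array, 5.21 on the TGF-β1 array and 5.12 on the control array. Of all 22180 genes, 12139, 12331, 11254 and 11670 exceeded it in the same order of arrays. These numbers are the background for counts of listed genes above the limit. Between a pair of arrays, a gene exceeding the limit on either of them was tested, values under the limit were raised to it, and a difference of 1 or more was called (at least 2-fold apart). A fold with 1 of its values under the limit is a lower bound, written as at least. There was no replicate of any group, so no value has an error between samples, no p-value was computed and no difference below has a replicate check. As a gauge of technical spread, the SD between the differences given by a pair of probe sets of the same gene was 0.48 for intestinal minus control (320 genes), 0.34 for Dll1 minus control (329 genes) and 0.24 for TGF-β1 minus control (316 genes). It leaves out all variation between cultures and mice. The share of all genes past the gauge was not counted, so passing it does not set a factor apart from other genes.

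The arrays carried the mast cell identity that the labels give. Of 11 measured mast cell markers, 9 were above the limit on each array, not the same 9 on all, and Mrgprb1, a receptor gene of connective tissue mast cells, was below it everywhere. Kit was at 11.75 in intestinal mast cells, 12.54 in Dll1 BMMCs, 12.22 in TGF-β1 BMMCs and 12.65 in control BMMCs, and Fcer1a lay between 11.66 and 12.41. Both encode proteins that were used to sort the intestinal cells, and c-Kit was also used to select the Dll1 cells. Other markers of the list differed more. Mcpt1 (at least 195-fold) and Mcpt2 (95.8-fold) were higher in intestinal than in control cells, and were also called higher in Dll1 and TGF-β1 cells. Tpsb2 (40.6-fold) and Cma1 (31.1-fold) were lower in intestinal than in control cells, and Mrgprb2 was above the limit in control cells alone.

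A promoter of each of 4 factors is printed for its sequence context: Sox4 and Gata1 had the widest ranges over the arrays, Tal1 had the same order of levels as Gata1, and Mitf was the factor furthest from control in TGF-β1 cells. They come from the RefSeq table of build GRCm38.p6, run 5′ to 3′ from 250 bases before the start site to 50 bases after it, and are the reference sequence, not that of BALB/c mice. The table held 16 promoters of 9 of the 10 genes, with none for Spi1. Of the 3 Mitf and 2 Tal1 promoters, the one with the most matches is printed. The other Tal1 promoter had none, and of the other Mitf promoters 1 had a TGATAA and 1 a TGTGGT match. Capitals mark matches to 10 short words, searched on both strands.
Sox4 promoter, chr13:28953650-28953949, minus strand: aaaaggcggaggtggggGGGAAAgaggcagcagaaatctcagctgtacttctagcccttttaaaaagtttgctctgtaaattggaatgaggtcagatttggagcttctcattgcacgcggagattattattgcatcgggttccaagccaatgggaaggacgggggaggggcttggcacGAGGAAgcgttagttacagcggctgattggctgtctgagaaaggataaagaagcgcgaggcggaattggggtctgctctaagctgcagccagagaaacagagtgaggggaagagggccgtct
Gata1 promoter, chrX:7967861-7968160, minus strand: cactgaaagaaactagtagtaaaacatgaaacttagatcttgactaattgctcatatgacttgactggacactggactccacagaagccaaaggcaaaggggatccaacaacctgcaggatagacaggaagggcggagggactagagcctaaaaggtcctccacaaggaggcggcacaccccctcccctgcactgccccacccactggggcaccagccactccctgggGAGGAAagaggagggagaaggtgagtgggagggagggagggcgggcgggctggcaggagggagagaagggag
Tal1 promoter, chr4:115056176-115056475, plus strand: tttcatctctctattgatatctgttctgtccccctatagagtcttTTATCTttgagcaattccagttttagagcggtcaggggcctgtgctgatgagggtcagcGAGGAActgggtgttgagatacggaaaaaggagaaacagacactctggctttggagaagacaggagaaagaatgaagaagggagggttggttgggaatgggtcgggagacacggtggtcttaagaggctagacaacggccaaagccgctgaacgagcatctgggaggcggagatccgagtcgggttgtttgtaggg
Mitf promoter, chr6:97991533-97991832, plus strand: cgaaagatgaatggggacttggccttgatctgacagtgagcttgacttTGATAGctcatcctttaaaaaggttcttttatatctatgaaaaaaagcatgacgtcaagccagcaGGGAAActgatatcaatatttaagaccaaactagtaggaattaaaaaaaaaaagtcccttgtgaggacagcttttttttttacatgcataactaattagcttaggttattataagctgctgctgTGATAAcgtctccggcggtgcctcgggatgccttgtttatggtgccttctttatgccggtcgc

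The GATA words were AGATAA, next to it TGATAA, then their forms with a final G, which are AGATAG besides TGATAG. The E-box words were CACGTG for MITF, joined by CATGTG. The other words were TGTGGT for RUNX factors, GAGGAA for ETS factors such as PU.1, and TTCNNNGAA for STAT5. GGGAAA was also searched, which shares letters with the longer word bound by the Notch effector RBPJ. A match to GGGAAA is not a match to that longer word. No match overlapped another in the printed promoters. In the Tal1 promoter TTATCT, the reverse complement of AGATAA, began 205 bases before the start site, and GAGGAA began 146 bases before it. In the printed Mitf promoter TGATAG began 202 bases and TGATAA 13 bases before the start site, with GGGAAA at 137 bases. The Sox4 promoter held GGGAAA at 233 bases and GAGGAA at 72 bases before the start site, and the Gata1 promoter held GAGGAA at 22 bases. Any of the 4 GATA words was present in 3 of the 16 promoters (2 of Mitf and 1 of Tal1), against 29.8% of all 32851 promoters in the table. GAGGAA was present in 5 of the 16 and in 28.3% of all promoters, GGGAAA in 2 of the 16 and in 25.2%, and TGTGGT in 3 of the 16 and in 16.8%. CACGTG was found in 1 promoter, of Runx1, and in 7.15% of all promoters. CATGTG (14.2% of all promoters) and TTCNNNGAA (8.3%) had no match in the 16 windows. These matches are letters in a window and say nothing of binding, and which of a gene's start sites these cells used was not tested.

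Across the 4 arrays Sox4 and Gata1 had the widest ranges, and Cebpa, Spi1 and Stat5a the narrowest. The range between the highest and lowest array, with the limit applied, was 3.03 for Sox4 and 1.62 for Gata1, and for the other 8 it ran from 0.24 for Cebpa to 0.82 for Tal1. The median range of the 13328 genes that exceeded the limit on any array was 0.46, a value that Cebpa, Spi1 and Stat5a fell short of and the other factors exceeded. A range of 1 or more was found in 2 of the 10 factors (20%) and in 15.2% of those genes.

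**Figure D1:**
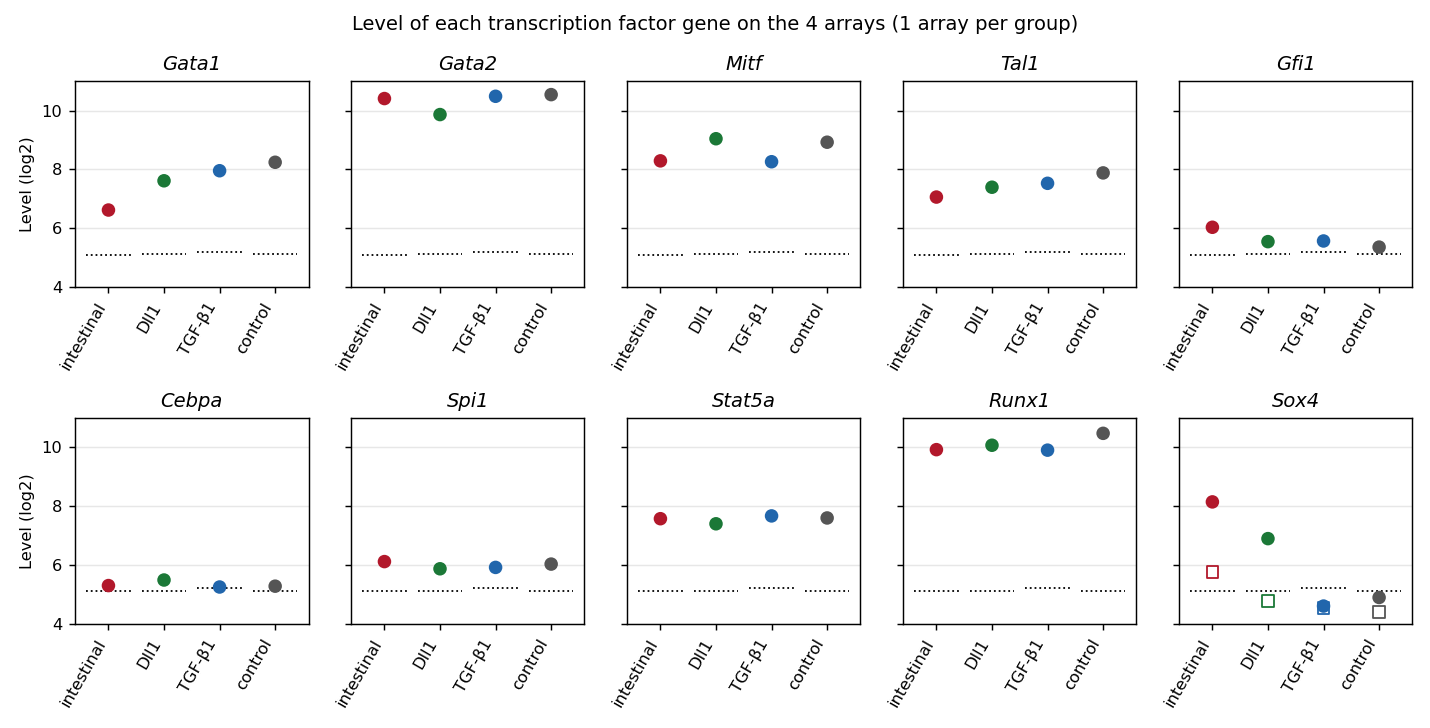
Level of each of the 10 factors on the intestinal, Dll1, TGF-β1 and control arrays (log2, 1 array per group, no error bars because there are no replicates), with the background limit of each array dotted and the other Sox4 probe set as open squares. On its brighter probe set Sox4 is below the limit on the TGF-β1 and control arrays and at 8.14 on the intestinal array, and Gata1 is lowest on the intestinal array at 6.62.

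GATA1 and GATA2 bind the same DNA word and differ in when and where they are used. Gata1 (chrX:7959260-7976663 in GRCm38.p6) was at 6.62 in intestinal mast cells, 7.62 in Dll1 BMMCs, 7.96 in TGF-β1 BMMCs and 8.24 in control BMMCs. All 3 steps of this order exceeded the gauge of the arrays they compare, although the step between Dll1 and TGF-β1 cells did so barely (0.34 against a gauge of 0.34). Gata1 was 3.07-fold lower in intestinal than in control cells (difference -1.62), 2.52-fold lower than in TGF-β1 cells (-1.33) and 1.99-fold lower than in Dll1 cells (-0.99), the last just short of the call. Over all alternative settings the difference between intestinal and control cells stayed between -1.80 and -1.55. In Dll1 and TGF-β1 cells Gata1 differed from control by -0.63 and -0.29, neither of which was called.

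Gata2 (chr6:88193891-88207032), which acts earlier and keeps progenitors competent for the mast cell fate, did not follow Gata1. It was at 10.41 in intestinal mast cells, 9.86 in Dll1 BMMCs, 10.48 in TGF-β1 BMMCs and 10.54 in control BMMCs. The Dll1 array was the low one, 0.68 below control, and the other 3 arrays lay within their gauges of each other. No comparison called Gata2.

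Tal1 (chr4:115056426-115071755), the helix-loop-helix partner of GATA factors in blood cells, had the same order as Gata1 over a narrower span. It was at 7.06 in intestinal mast cells, 7.40 in Dll1 BMMCs, 7.53 in TGF-β1 BMMCs and 7.88 in control BMMCs. The largest difference, intestinal minus control, was -0.82 (1.77-fold lower) and was not called. Of the neighbouring steps, only that between TGF-β1 and control cells exceeded its gauge. The order shared by Gata1 and Tal1, lowest in intestinal and highest in control cells, was also that of 9.45% of the 13328 genes.

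**Figure D2:**
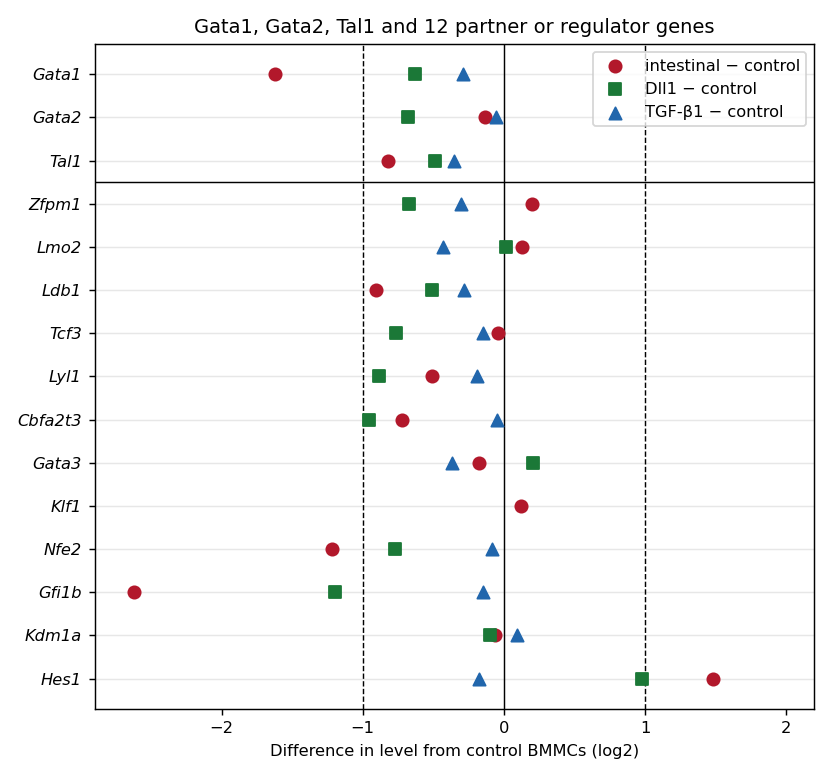
Log2 difference from control of Gata1, Gata2, Tal1 and, below the line, 12 partner or regulator genes of GATA factors, in intestinal, Dll1 and TGF-β1 cells (1 array per group, dashed lines at 2-fold, no point where a gene was under the limit on both arrays). Gfi1b, Gata1 and Nfe2 lie below the 2-fold line and Hes1 above it in intestinal cells, and Gfi1b alone passes the line in Dll1 cells, while in TGF-β1 cells no gene does.

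Partners and regulators of the GATA factors gave the context of these differences. Of 12 such genes, all measured, 2 were called lower and 1 higher in intestinal than in control cells, with a median of -0.12 over the list against 0.00 over all genes tested. Of all genes tested between these arrays, 11.2% were called. Gfi1b, a zinc finger repressor of the erythroid and megakaryocytic lineages, was at 6.31 in intestinal mast cells, 7.73 in Dll1 BMMCs, 8.78 in TGF-β1 BMMCs and 8.93 in control BMMCs. It had the same order as Gata1 and was 6.14-fold lower in intestinal and 2.29-fold lower in Dll1 cells than in control cells. Nfe2, an erythroid and megakaryocytic factor of the basic leucine zipper class, was at 5.58 in intestinal mast cells, 6.02 in Dll1 BMMCs, 6.71 in TGF-β1 BMMCs and 6.80 in control BMMCs, and was 2.33-fold lower in intestinal than in control cells. Hes1, a repressor that Notch signalling switches on, was at 7.51 in intestinal mast cells, 7.01 in Dll1 BMMCs, 5.85 in TGF-β1 BMMCs and 6.03 in control BMMCs. It was 2.80-fold higher in intestinal than in control cells, 2.22-fold higher in Dll1 than in TGF-β1 cells, and short of the call between Dll1 and control cells.

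Other subunits of the GATA and TAL1 complexes passed the rule in no comparison, and the following were picked after their values were seen. The cofactor gene Zfpm1 (FOG-1) was at 7.25 in intestinal mast cells, 6.38 in Dll1 BMMCs, 6.75 in TGF-β1 BMMCs and 7.05 in control BMMCs. The bridging factor gene Ldb1 was at 8.60, 8.99, 9.22 and 9.50 in the same order of groups, and the TAL1 relative Lyl1 at 8.05, 7.67, 8.37 and 8.56. Ldb1 thus had the order of Gata1 and Tal1, and Zfpm1 and Lyl1 were lowest in Dll1 cells as Gata2 was.

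GATA1 and TAL1 are best known in the erythroid and megakaryocytic lineages. Of 7 measured markers of these, 3 were called lower in intestinal than in control cells, where Gata1 was lower too: Vwf 4.33-fold, Itga2b 3.24-fold and Epor 2.88-fold. Of all 12722 genes tested between these arrays, 857 were called lower and 569 higher. Gp9 was highest in Dll1 cells (6.26) and Vwf was higher in Dll1 (6.45) than in TGF-β1 cells (6.08), orders that Gata1 did not have. The summed level of the list was 9.24 in intestinal mast cells, 9.84 in Dll1 BMMCs, 10.42 in TGF-β1 BMMCs and 10.73 in control BMMCs (log2 of the sum of linear levels). Pf4 and Ppbp, genes of platelet chemokines, were below the limit on all 4 arrays. Of 8 basophil markers, 4 were called lower in intestinal than in control cells, Cd200r3 (13.8-fold), Cd200r4 (11.7-fold), L1cam (5.40-fold) and Itga2b, and Mcpt8 was 5.41-fold higher. The summed level of that list was 11.43 in intestinal mast cells, 11.97 in Dll1 BMMCs, 11.24 in TGF-β1 BMMCs and 11.68 in control BMMCs. The part of such cells in the level of Gata1 or of the GATA targets was not tested.

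Mitf (chr6:97807002-98021360) encodes the E-box factor whose loss in mice leaves few and immature mast cells. It was at 8.29 in intestinal mast cells, 9.04 in Dll1 BMMCs, 8.26 in TGF-β1 BMMCs and 8.92 in control BMMCs. The arrays formed a high pair, Dll1 and control, and a low pair, intestinal and TGF-β1, and within each pair the arrays differed by less than the gauge. Mitf was 1.58-fold lower in TGF-β1 than in control cells (-0.66), 1.55-fold lower in intestinal than in control cells (-0.63) and 1.72-fold higher in Dll1 than in TGF-β1 cells (0.78), and none of these was called. Its difference between TGF-β1 and control cells ranked 345th from the lowest of 12023 genes tested. The 8 genes of the MITF family and other E-box factors, 7 of them tested, had no call in any of the 6 comparisons. Tfe3, a close relative of Mitf, was at 7.19 in intestinal mast cells, 7.64 in Dll1 BMMCs, 7.15 in TGF-β1 BMMCs and 7.56 in control BMMCs, the same pairing at smaller differences, and it was named after its values were seen.

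Runx1 (chr16:92601466-92826074), the core-binding factor subunit needed for the first blood stem cells, was highest in control cells. It was at 9.92 in intestinal mast cells, 10.07 in Dll1 BMMCs, 9.90 in TGF-β1 BMMCs and 10.47 in control BMMCs. The differences from control were -0.55, -0.40 and -0.57, each over its gauge and none of them called. The other 3 arrays differed among themselves by less than their gauges. Its relative Runx3, which acts in lymphocytes and in TGF-β responses, was at 9.22 in intestinal mast cells, 8.06 in Dll1 BMMCs, 9.21 in TGF-β1 BMMCs and 8.76 in control BMMCs. Runx3 was 2.24-fold higher in intestinal than in Dll1 cells and 2.23-fold lower in Dll1 than in TGF-β1 cells.

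The myeloid factors Spi1 and Cebpa and the cytokine effector Stat5a were the level members of the set. Spi1 (chr2:91082374-91115759), which encodes PU.1, was at 6.12 in intestinal mast cells, 5.88 in Dll1 BMMCs, 5.92 in TGF-β1 BMMCs and 6.03 in control BMMCs. Cebpa (chr7:35119293-35121928), whose product favours the basophil and granulocyte fates, was at 5.31, 5.49, 5.26 and 5.29 in the same order of groups, just above the limit on every array. Stat5a (chr11:100859351-100885169) was at 7.57, 7.40, 7.67 and 7.60. No neighbouring pair of arrays differed by more than its gauge for any of these 3 genes. Stat5b, its near-identical paralog, with which probes of Stat5a may share signal, was at 8.82 in intestinal mast cells, 9.08 in Dll1 BMMCs, 8.68 in TGF-β1 BMMCs and 9.15 in control BMMCs.

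Gfi1 (chr5:107716655-107725805), a zinc finger repressor of granulocyte and lymphoid development and the paralog of Gfi1b, was highest in intestinal cells. It was at 6.04 in intestinal mast cells, 5.55 in Dll1 BMMCs, 5.57 in TGF-β1 BMMCs and 5.37 in control BMMCs. The difference between intestinal and control cells, 0.67 (1.59-fold higher), exceeded the gauge and was not called. With the limit at the 99th percentile it was 0.09, inside the gauge, and over all settings it lay between 0.09 and 0.98. The differences among the 3 cultured groups were within their gauges, and Gfi1 and Gfi1b thus had opposite orders at their extremes.

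Sox4 (chr13:28948919-28953699), an HMG-box factor of progenitors and a known target of several signalling pathways, had the widest range of the 10. On its brighter probe set it was at 8.14 in intestinal mast cells, 6.90 in Dll1 BMMCs, 4.61 in TGF-β1 BMMCs and 4.90 in control BMMCs. The last 2 values are below the limits of their arrays, so only the intestinal and Dll1 arrays measured it. Sox4 was at least 8.16-fold higher in intestinal and at least 3.44-fold higher in Dll1 cells than in control cells, and 2.37-fold higher in intestinal than in Dll1 cells, where both arrays measured it.

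The other Sox4 probe set was above the limit on the intestinal array alone, at 5.76 in intestinal mast cells, 4.78 in Dll1 BMMCs, 4.54 in TGF-β1 BMMCs and 4.40 in control BMMCs. It gave at least 1.57-fold between intestinal and control cells, short of the call, and below the limit on both arrays it gave no fold between Dll1 and control cells. With the mean of both probe sets, Sox4 was called in intestinal cells (1.84 against control) and lost its call in Dll1 cells, at 0.72 against control and 0.63 against TGF-β1 cells. With the limit at the 99th percentile of the receptor probe sets, the difference between Dll1 and control cells was 0.95, also under the call.

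**Figure D3:**
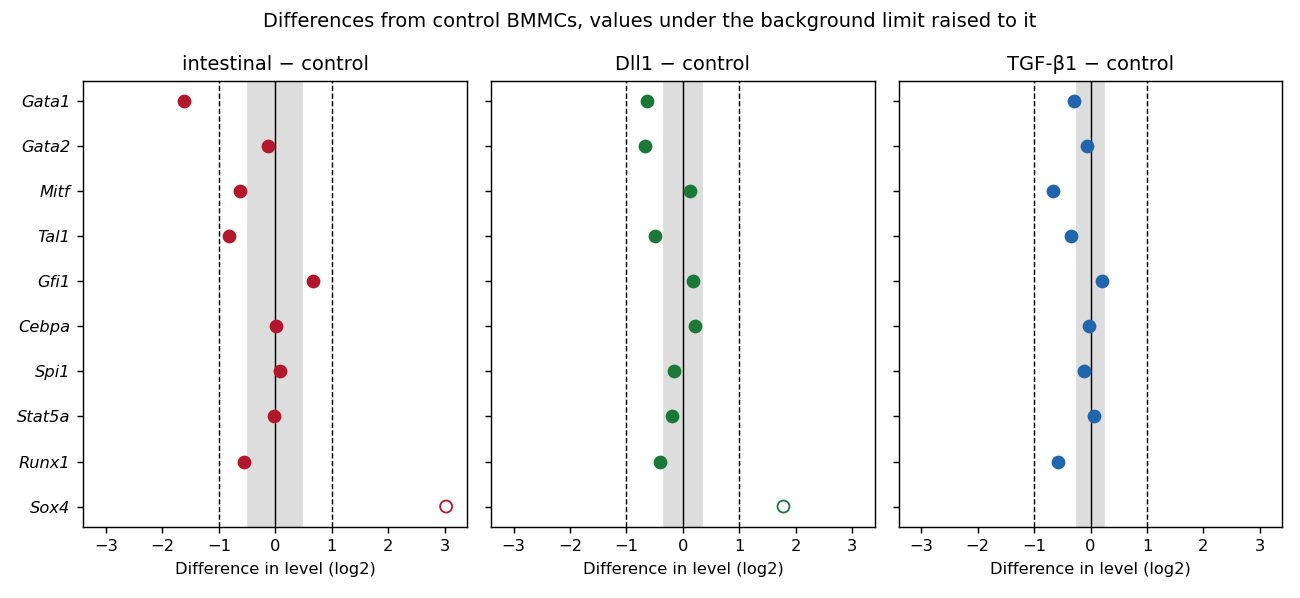
Log2 difference from control of each factor in intestinal, Dll1 and TGF-β1 cells, with the background limit applied (1 array per group; dashed lines at 2-fold, grey band the gauge of technical spread, open points lower bounds). Sox4 lies beyond 2-fold in intestinal (3.03) and Dll1 cells (1.78) and has no point in TGF-β1 cells, Gata1 lies beyond it in intestinal cells (-1.62), and the other 8 factors stay inside the lines.

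In TGF-β1 cells no factor reached 2-fold. None of 9 members tested was called, where 1.4% of all 12023 genes tested were (61 higher, 107 lower), and Sox4 was below the limit on both arrays. The members' median difference was -0.11 against -0.02 over all genes tested, with 2 members above 0 and 7 below it. Those past the gauge were all lower: Mitf (-0.66), Runx1 (-0.57), Tal1 (-0.35) and Gata1 (-0.29). From the lowest of the 12023 genes tested they ranked 345th, 514th, 1382nd and 1924th, so many other genes were as low. Of 17 other haematopoietic factors measured, Id2, an inhibitor of helix-loop-helix factors, was 3.68-fold lower and Eomes, a T-box factor of lymphoid cells, 2.27-fold higher.

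In Dll1 cells Sox4 was the 1 member called of 10 tested, where 3.42% of 12761 genes were (209 higher, 227 lower). With each array's median subtracted, the split over all genes was 175 higher and 316 lower. The median over the members was -0.18 against 0.00 over all genes tested. Gata2 (-0.68), Gata1 (-0.63), Tal1 (-0.49) and Runx1 (-0.40) were lower by more than the gauge, and Mitf (0.12), Gfi1 (0.19) and Cebpa (0.21) were above control by less than it. Set against TGF-β1 cells, Dll1 cells again had Sox4 as the 1 member called (at least 3.22-fold higher), where 4.09% of 12650 genes were. Id2 was 4.79-fold higher and Eomes at least 3.84-fold lower.

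In intestinal cells 2 of the 10 members were called against control, Sox4 higher and Gata1 lower, where 11.2% of 12722 genes were (569 higher, 857 lower). The members' median was -0.08. Gfi1 was the other member above control by more than the gauge, and Tal1, Mitf and Runx1 were below it by more than the gauge. Id2 was the 1 other haematopoietic factor called, 2.40-fold lower. Against TGF-β1 cells Sox4 (at least 7.64-fold higher) and Gata1 were called again, where 8.61% of 12551 genes were. Against Dll1 cells Sox4 was the 1 member called, where 7.69% of 13035 genes were, and Gata1 (-0.99), Mitf (-0.75), Gata2 (0.54) and Gfi1 (0.49) differed by more than the gauge and were not called. The comparisons with a common array share its values. These counts are 0, 1 or 2 of 9 or 10, too few to set the members apart from the share of all genes.

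**Figure D4:**
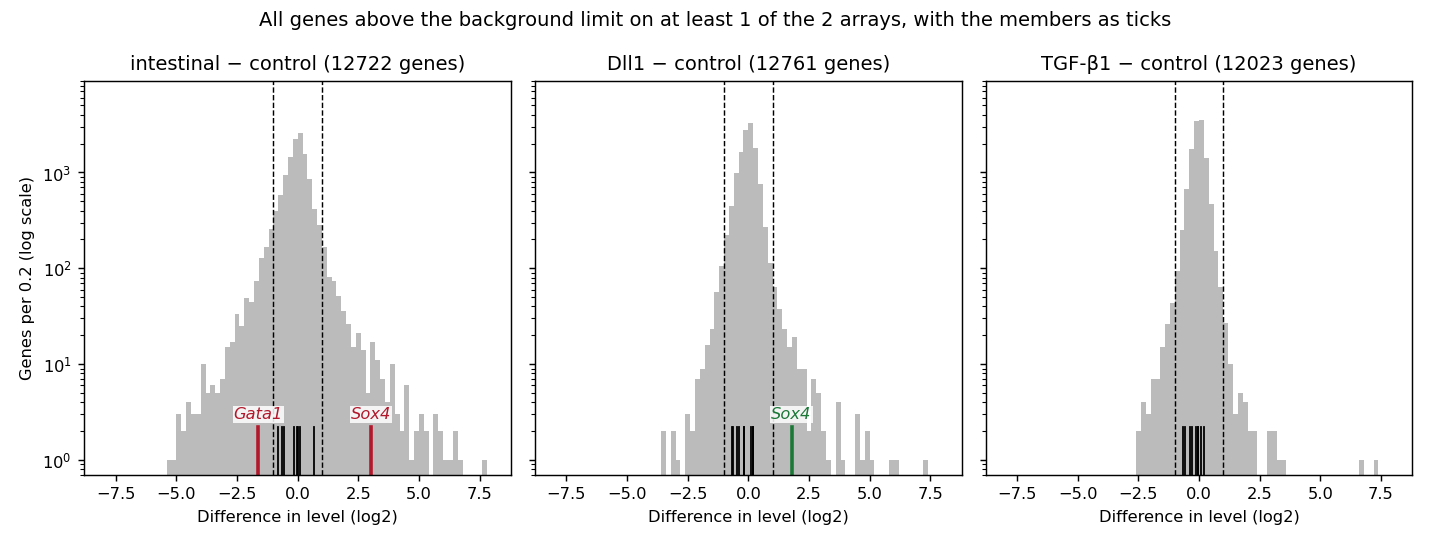
Number of genes (log axis) at each log2 difference from control in intestinal, Dll1 and TGF-β1 cells, over all genes tested with the limit applied, with the factors as ticks and 2-fold as dashed lines. Sox4 is in the upper tail in intestinal and Dll1 cells and Gata1 in the lower tail in intestinal cells, and the other factors tested lie inside the dashed lines.

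Genes that the factors are known to act on were counted list by list. Against control, 11.2% of all genes tested were called in intestinal, 3.42% in Dll1 and 1.4% in TGF-β1 cells. These shares are the background for the counts here and below. Of 9 measured GATA targets in mast cells, 4 were lower in intestinal than in control cells: the protease genes Tpsb2 (40.6-fold), Cma1 (31.1-fold) and Tpsab1 (7.93-fold) and the monoamine transporter gene Slc18a2 (3.41-fold). None was higher, and the median was -0.90. Kit, Fcer1a, Ms4a2, Cpa3, Hdc, Tpsb2 and Cma1 of this list are also among the mast cell markers, with the same values. In Dll1 and TGF-β1 cells the 1 GATA target called was Tpsab1, 3.50-fold and 11.8-fold higher than in control cells, with list medians of -0.02 and -0.14. Tpsb2 shows the contrast: it was at 6.21 in intestinal mast cells, 11.83 in Dll1 BMMCs, 11.78 in TGF-β1 BMMCs and 11.55 in control BMMCs. The tryptase genes Tpsb2 and Tpsab1 are similar in sequence, and their probes may share signal.

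MITF targets went both ways. Of 13 measured, 3 were higher in intestinal than in control cells, namely Mcpt4 (at least 39.2-fold), Ctsg (9.38-fold) and Itga4 (3.19-fold), and 4 were lower, among them Tpsb2, Cma1 and Cadm1 (23.4-fold). Tpsb2 and Cma1 are also in the GATA list. In Dll1 cells the same 3 genes were higher, Mcpt4 at least 32.8-fold, Ctsg 9.79-fold and Itga4 7.09-fold. In TGF-β1 cells Itga4, which encodes an integrin of cell homing, was the 1 target called, 2.84-fold lower. Mitf itself was below control in intestinal cells and above it, within the gauge, in Dll1 cells.

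Stat5a was level, and targets of STAT5 were called in all 3 groups, most of them in intestinal cells, where calls over all genes were also the most frequent. Of 14 measured, 6 were lower in intestinal than in control cells, among them the feedback inhibitors Socs1 (4.96-fold), Socs2 (3.30-fold) and Cish (2.48-fold), the kinase gene Pim2 (4.59-fold) and the cyclin gene Ccnd2 (2.35-fold). The cytokine gene Osm was 2.11-fold higher, and the median of the list was -0.72. In Dll1 cells Osm (2.60-fold) and Il2ra (2.15-fold) were higher, and in TGF-β1 cells Socs2 was 2.50-fold lower. The labels name no culture in interleukin-3 and stem cell factor for the intestinal cells, while the other groups shared it, and this cannot be told apart from the tissue of origin.

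The targets of PU.1 and C/EBP in myeloid cells that were called against control were all higher. Spi1 and Cebpa differed from control by less than the gauge. Cebpa was close to the limit, and Spi1, at 5.88 in Dll1 BMMCs, was under the 99th percentile of that array (6.00). The list as a whole moved little. Its median was 0.18 in Dll1 cells (9 genes above 0, 6 below) and 0.21 in intestinal cells (10 above, 5 below). Of 16 measured, 5 were higher in Dll1 than in control cells, namely the granule genes Elane (at least 12.5-fold), Mpo (7.09-fold) and Prtn3 (4.76-fold), the adaptor gene Tyrobp (3.09-fold) and the oxidase gene Cybb (at least 2.10-fold). In intestinal cells 4 were higher, Cybb (at least 4.06-fold), Itgam (3.23-fold), Tyrobp (2.78-fold) and Csf1r (at least 2.70-fold), and in TGF-β1 cells none was called. Of 12 neutrophil and promyelocyte markers, 3 were above the limit in intestinal mast cells, 12 in Dll1 BMMCs, 5 in TGF-β1 BMMCs and 5 in control BMMCs, with summed levels of 9.51, 11.22, 8.76 and 8.75. Of these markers, 7 were called higher in Dll1 than in control cells, and Ly6g was called lower (2.07-fold). Ly6g was also called lower in TGF-β1 and in intestinal cells than in control cells. This marker list shares Elane, Mpo, Prtn3 and Csf3r with the PU.1 and C/EBP targets, and Ctsg with the MITF targets. The PU.1 and C/EBP targets also share Csf1r, Cd68 and Lyz2 with the macrophage markers given below. Of 6 measured eosinophil markers, 3 were called higher in Dll1 than in control cells. These were Prg2 (11.45 in Dll1 BMMCs and 5.40 in control BMMCs), Prg3 and Epx. The rest of the list did not follow. Siglecf and Il5ra were under the limit on both arrays, and Ccr3 was at 5.58 in Dll1 BMMCs and 5.93 in control BMMCs. The part of granulocytes in the Dll1 values, those of Sox4 and Gata2 included, was not tested.

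**Figure D5:**
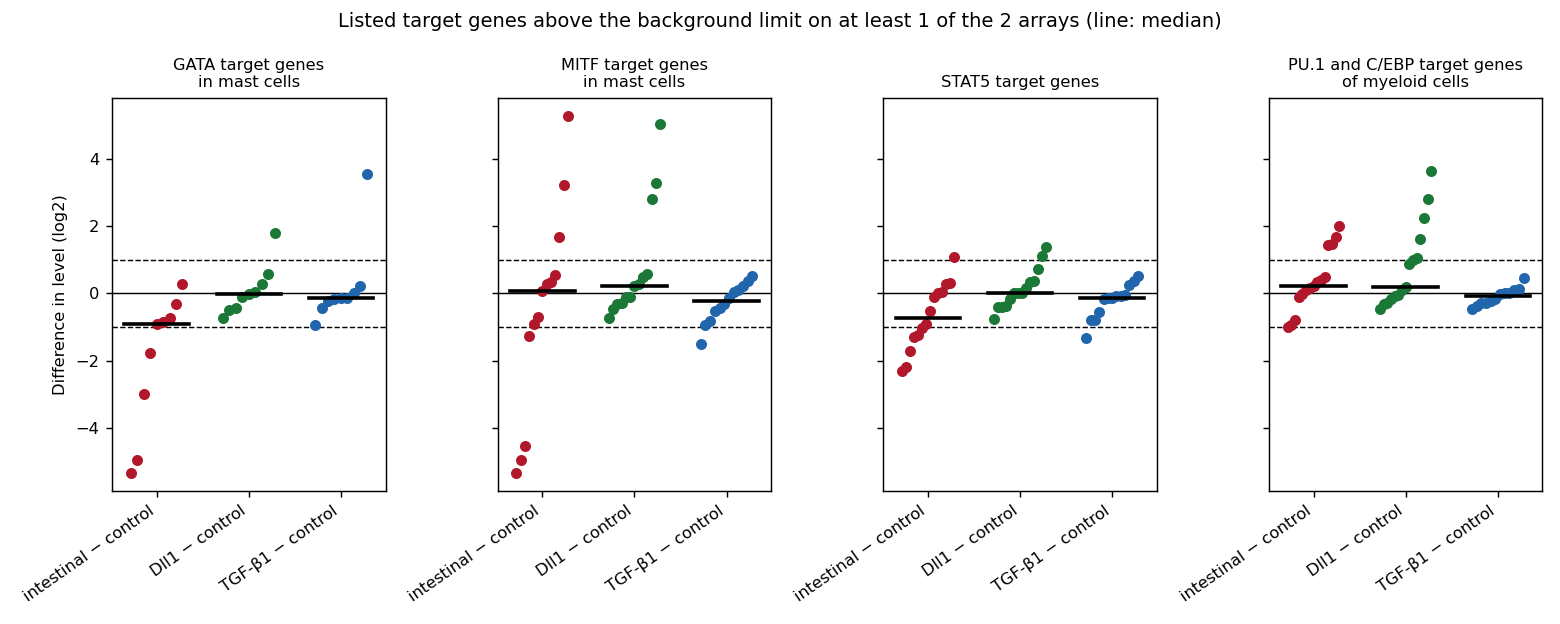
Log2 differences from control of the listed target genes of GATA factors, MITF, STAT5, and PU.1 and C/EBP in intestinal, Dll1 and TGF-β1 cells (limit applied, 1 array per group, each point a gene, bars the medians, dashed lines at 2-fold). In intestinal cells the medians of GATA and STAT5 targets lie at -0.90 and -0.72 and MITF targets spread both ways, and in Dll1 cells the PU.1 and C/EBP targets that pass 2-fold are all above control.

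Of 11 Notch targets, 3 were higher in intestinal than in control cells, namely Hes1, Notch1 (2.88-fold) and Hey1 (at least 24.1-fold), while Hey2 was lower by at least 3.31-fold. In Dll1 cells Il2ra, also in the STAT5 list, was the 1 Notch target called, and in TGF-β1 cells there was none. Hes1 was 1.97-fold higher in Dll1 than in control cells, just short of the call, and Hey1 was below the limit in both. The part of Notch signalling in the level of Sox4 was not tested.

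Other gene groups were higher on the same arrays as Sox4. Of 20 immediate early genes, a class induced rapidly by stimuli and by handling of cells, 18 were called higher in intestinal cells and 12 in Dll1 cells against control, with none lower and none called in TGF-β1 cells. Their summed level was 14.96 in intestinal mast cells, 13.69 in Dll1 BMMCs, 11.48 in TGF-β1 BMMCs and 11.41 in control BMMCs. The 3 genes nearest to Sox4 in level pattern over the 4 arrays, of 12127 searched, were Fos (distance 0.16), Nf1 (0.19) and Cd69 (0.19), of which Fos is an immediate early gene. The distance is the Euclidean one between log2 levels centred on each gene's mean, and for Sox4 it includes the values under the limit as deposited. The 3 nearest to Gata1 were Tap2 (0.09), Renbp (0.10) and Slc35d1 (0.11). With 4 arrays many genes share a pattern, so these names carry no more than the distance.

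Some markers of other cells were also higher on the intestinal array. Of all 22180 genes, 12139 were above the limit there, 12331 in Dll1, 11254 in TGF-β1 and 11670 in control BMMCs. T and innate lymphoid cell markers above the limit numbered 10 of 12 in intestinal mast cells, 4 in Dll1 BMMCs, 2 in TGF-β1 BMMCs and 4 in control BMMCs, with summed levels of 11.48, 9.67, 8.43 and 8.60. Cd3g, a T cell receptor subunit gene, was at 8.84 in intestinal mast cells and below the limit on the other 3 arrays, as was Cd3e. The Dll1 array, with Cd3e and Cd3g under the limit, had Gzma, a granule protease gene of cytotoxic lymphocytes, at 7.92. On the intestinal array Gzma was the highest gene of that list, at 10.33, and the largest part of its sum. Epithelial markers above the limit numbered 10 of 15 in intestinal mast cells and 4 in each of the other groups, with summed levels of 10.94 in intestinal mast cells, 9.09 in Dll1 BMMCs, 9.30 in TGF-β1 BMMCs and 8.92 in control BMMCs and with Epcam and Vil1 below the limit everywhere. Most of the epithelial sum on the intestinal array was Cdh1, at 10.12, which was also 2.66-fold higher in TGF-β1 than in control BMMCs. Macrophage and dendritic cell markers numbered 10 of 13, 6, 7 and 4, with summed levels of 11.63, 8.98, 9.05 and 8.90 in the order intestinal, Dll1, TGF-β1 and control. Most of the intestinal sum was Itgax, an integrin gene, at 11.19 in intestinal mast cells, 5.27 in Dll1 BMMCs, 5.22 in TGF-β1 BMMCs and 4.86 in control BMMCs. Sox4 is known in lymphoid and epithelial cells too, and the part of other cells, of handling or of hamster RNA in its level was not tested.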

How the data were processed

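Per the labels' protocols, 2 ng of RNA were amplified and labelled with biotin, using a kit made for little input. The authors deposited log2 values for 33793 probe sets on 4 arrays, and the range of the values (4.13 to 13.14) is the basis for reading them as log2. Their software, normalization and build: not given in the sources used here. Once sorted, the values of the 4 arrays lay 0.06 apart in the mean and 0.25 at the most, so they were taken without further normalization. Precision is limited by the number of arrays, and intensities have no read depth.

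Symbols came from the platform annotation: 23521 probe sets had 1 symbol, 1814 had several and 8458 had none. Where a gene had several probe sets, that of highest mean level was used, and both Sox4 probe sets are given. Entrez identifiers, coordinates and promoters came from RefSeq for GRCm38.p6, in which all 10 members matched. Named genes were all members, genes of the transcription factor and target lists past the 2-fold rule (up to 6 a comparison by size), and the 3 genes nearest to each member whose range was at least 1. Only for comparisons with control are list genes past the rule named throughout. Outside the rule, Zfpm1, Ldb1, Lyl1, Tfe3, Stat5b and single genes of the marker lists were named after their values were seen. The members and lists were chosen with earlier results of these data known. Alternatives changed the normalization, the background limit, the choice of probe set and the compression of dim values. Work was done in Python 3.11.15 with pandas 2.3.3, numpy 2.4.6 and matplotlib 3.10.9.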

Additional observations from a re-analysis of the deposited data

How the results depend on the processing

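No paired analysis was possible because each group had 1 array, and no array could be left out. Of 420 differences of members under the alternatives, 401 moved by less than the spread gauge and 19 by more, all of Sox4 or Gfi1, and no called difference changed sign. Differences that changed sign under some setting were small and not called: Gfi1 in TGF-β1 minus control and Dll1 minus TGF-β1, Cebpa and Stat5a in intestinal minus control, Runx1 in intestinal minus TGF-β1, Spi1 in Dll1 minus TGF-β1, and Sox4 in TGF-β1 minus control. The count of members called in Dll1 minus control was 0 with the limit at the 99th percentile and 0 with probe sets of a gene averaged, and in Dll1 minus TGF-β1 it was 0 with probe sets averaged. After subtraction of 16 from the linear levels the count in intestinal minus Dll1 was 2, as Gata1 joined at -1.12, and the counts over all genes were 294 in TGF-β1 minus control, 753 in Dll1 minus control and 834 in Dll1 minus TGF-β1. Sox4 ranged from 1.84 to 3.84 in intestinal minus control, from 0.72 to 2.47 in Dll1 minus control, from 1.74 to 3.67 in intestinal minus TGF-β1, from 0.63 to 2.30 in Dll1 minus TGF-β1 and from 1.11 to 1.37 in intestinal minus Dll1. Signal near the limit sets the precision for Sox4, Cebpa and Gfi1, and on the Dll1 array Spi1 was under the stricter limit.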
